A study of Mus musculus with 12 samples.

Results

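The MYC, MAX and MXD network was followed through successive divisions of CD4 T cells responding to antigen in mice. It was taken as 8 genes by symbol, Myc, Max, Mxd1, Mxd3, Mxd4, Mxi1, Mnt and Mlx, which had 15 of the 45281 probes on the arrays. All 8 genes had a detected probe and were among the 9566 genes tested, and 11 of the 15 probes were detected on at least 3 arrays. The cells were naive DO11.10 CD4 T cells, whose transgenic receptor recognises an ovalbumin peptide, of the Balb/c strain. They carried CFSE, a dye that each division dilutes, and were placed in Balb/c hosts, which then received the peptide with complete Freund's adjuvant. At 66 to 72 h the responding cells of the lymph node were split by remaining dye into D3 (divided 2 times), D4 (3 times), D6 (5 times) and D8 (7 times). Each group had 3 samples, 1 from each of 3 independent experiments, and the donor cells, hosts and immunization were shared by all 4 groups. According to the design text, D4 cells readily became memory cells, while cells of the other 3 divisions were less able to. The labels name no gate other than the dye, and do not say how many mice each sample pooled.

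MYC is a basic helix-loop-helix leucine zipper protein that activates genes only as a pair with MAX, and the pair binds the DNA word CACGTG, the E-box. The MXD proteins, MXI1 and MNT also pair with MAX, bind the same word and recruit SIN3 corepressors with histone deacetylases, so they compete with MYC for MAX and for its sites. MLX, a relative of MAX, pairs with MondoA (Mlxip) and ChREBP (Mlxipl) and with some of the MXD proteins. In T cells MYC is induced by the antigen receptor and interleukin 2 and drives growth, nutrient uptake and the making of ribosomes.

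The E-box was looked for in the RefSeq promoter windows of the network (GRCm38.p6, 250 bases before to 50 after each start), because it is the word that all of these pairs bind. Max, Mlx, Mnt and Mxd4 held it, which is 4 of the 7 genes with a window, against 8.09% of 27025 genes. The 30 bases around each are shown 5′ to 3′ on the strand of the gene, with the E-box in capitals. They lie at chr12:76962234-76962263 (minus strand) for Max, chr11:101087238-101087267 (plus strand) for Mlx, chr11:74830789-74830818 (plus strand) for Mnt and chr5:34187912-34187941 (minus strand) for Mxd4.
Max: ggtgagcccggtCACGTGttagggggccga
Mlx: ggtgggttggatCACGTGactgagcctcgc
Mnt: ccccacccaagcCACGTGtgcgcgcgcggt
Mxd4: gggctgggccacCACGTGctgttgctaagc
The E-box starts 3 bases before the gene start in Max, 40 in Mlx, 123 in Mnt and 219 in Mxd4. Mxd1 and Mxd3, with 1 window each, and Mxi1, with 3, did not hold it. The word reads the same on both strands. The word TTTNNCGC, one form of the E2F motif of cell cycle genes, was found on neither strand in any of the 7 genes, against 5.93% of all genes. These matches describe letters in the windows, and binding was not measured.

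The arrays detected 15563 to 16666 probes each, with median intensities of 41.6 to 51.2, and no 2 arrays of a group were identical. Levels below are log2 normalized intensities, in which background gives about 4 and the lowest detected signal of an array lay between 4.67 and 4.78. A difference of 1 is a 2-fold change. An offset of 16 was added to each intensity before the log, so changes of dim probes are understated. The brightness of one probe cannot be set against that of another, and fewer cells that carry an RNA cannot be told apart from less RNA per cell. Of the 12 CD4 T cell markers listed, 10 were tested, 0 rose and 3 fell in D8 against D3, with differences of -0.35 (Cd3d), -0.37 (Cd3g) and -0.33 (Cd2), against 18.9% of all genes called lower, and Cd4 itself had 8.22 ± 0.10 in D8 and 8.13 ± 0.10 in D3 (SD, n = 3).

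Of the network, 3 antagonists of MYC changed, in different directions. Between D8 and D3, Mxd3 and Mxd1 rose and Mxd4 fell, while Myc, Max, Mxi1, Mnt and Mlx did not pass the test. That is 3 of 8 genes called, and of all 9566 genes 36.5% were called (17.6% higher and 18.9% lower), so the count is near the background. The median difference of the 8 genes was 0.10, against 0.00 for all genes. Setting Mxd3 at the bound given below left it at 0.10, which could not be otherwise, because Mxd3 stays the largest of the 8. The plot of the 8 genes on the 12 arrays shows the 3 called genes with 3 different courses.

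**Figure D1:**
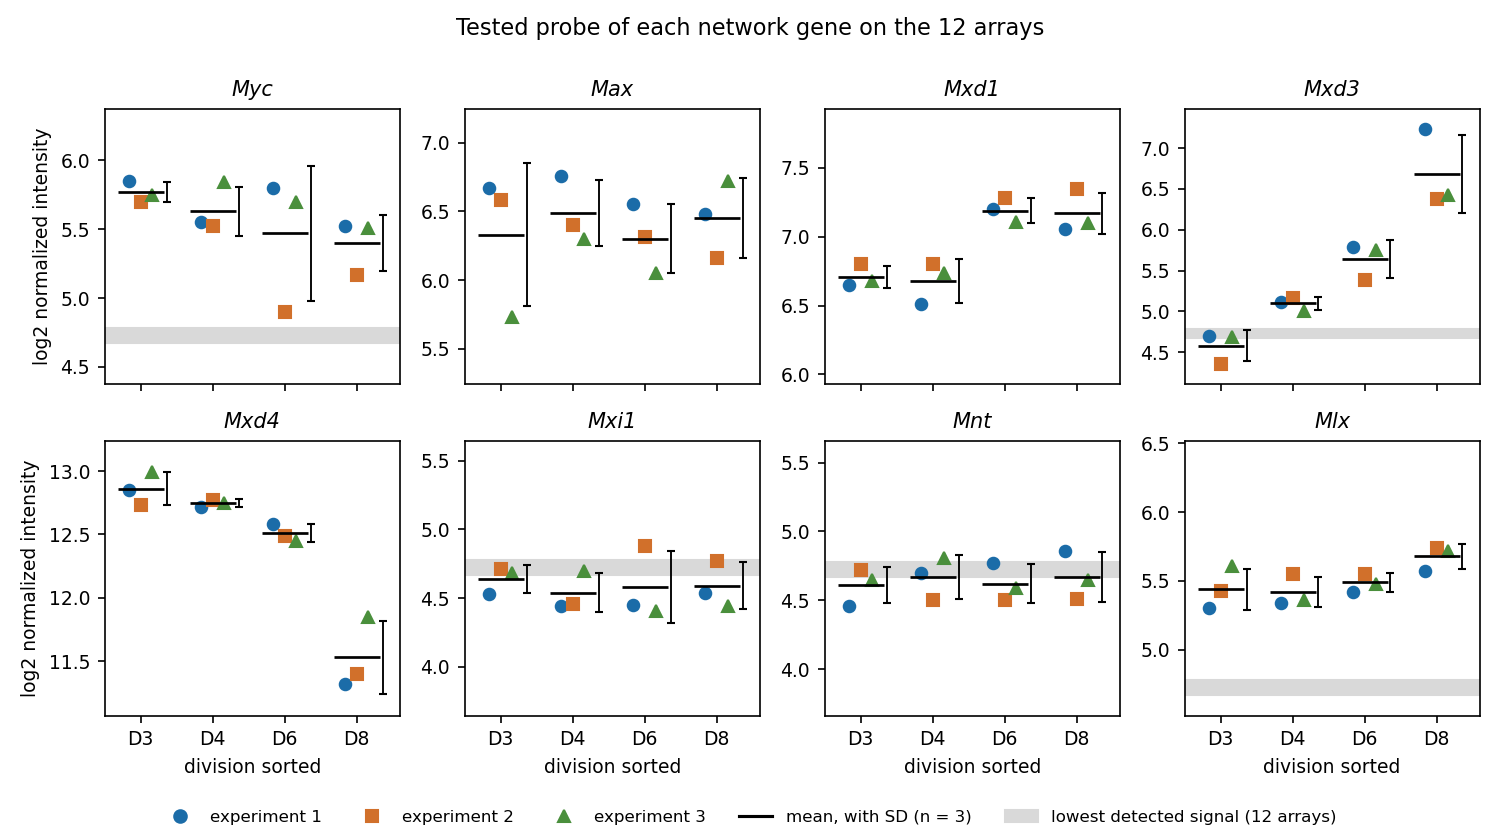
Log2 normalized intensity (vertical axis, a different range in each panel) of the tested probe of each network gene in D3, D4, D6 and D8. Points are arrays, marked by experiment, black lines are means with SD beside them (n = 3), and the grey band spans the lowest detected signal of the 12 arrays. Mxd3 lies in or below the band in D3 and is higher at each later division, Mxd4 drops in D8, Mxd1 steps up between D4 and D6, and Mxi1 and Mnt lie around the band.

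Myc itself was dim. Its tested probe had 5.85, 5.70 and 5.75 in D3 (experiments 1, 2 and 3), 5.55, 5.52 and 5.84 in D4, 5.80, 4.90 and 5.70 in D6, and 5.52, 5.17 and 5.51 in D8, and it was detected on all 12 arrays. The 3 D8 values lie below the 3 D3 values, and the D6 array of experiment 2 is the lowest of all. Myc had a D8 minus D3 difference of -0.36 ± 0.19 (SE, interval -0.78 to 0.05), with the same sign in 3 of 3 experiments (-0.33, -0.53 and -0.23), and the limma adjusted p was 0.164. Without the D6 array of experiment 2 the difference was -0.37 and the adjusted p 0.0398. That array belongs to neither D8 nor D3, and Myc was not called in 21 of the 22 alternatives run. The other 5 pairs of divisions gave Myc differences between -0.30 and -0.06 with adjusted p of at least 0.344. A second Myc probe was not detected on any array and stayed between 4.18 and 4.33.

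Max, the partner that every pair of the MYC branch needs, had 6.67, 6.58 and 5.73 in D3, 6.76, 6.40 and 6.30 in D4, 6.55, 6.31 and 6.05 in D6, and 6.48, 6.16 and 6.72 in D8. All 4 groups overlap, and the D3 array of experiment 3 is the lowest. The D8 minus D3 difference was 0.13 ± 0.23 (interval -0.36 to 0.62, adjusted p 0.709), and its sign differed between experiments and turned with median centring (-0.04) and without 1 of 2 arrays.

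Mxd3, an MXD protein that in mouse tissues is made by cycling cells in S phase, had the largest change of the 8. Its levels were 4.70, 4.36 and 4.69 in D3, where no array detected it, 5.12, 5.16 and 5.01 in D4, 5.79, 5.38 and 5.75 in D6, and 7.23, 6.38 and 6.43 in D8. No neighbouring groups overlap, so the 4 divisions stand in order. Compared by its means, Mxd3 was at least 3.94-fold higher in D8 than in D3 (6.68 ± 0.48 in D8 and 4.58 ± 0.19 in D3, SD, n = 3, adjusted p 1.81e-06). The bound is the mean of D8 over the detection floor of the D3 arrays. It does not allow for the spread between arrays or for other background settings. The size of the rise depends on the treatment of background. The fitted D8 minus D3 difference was 2.10 (interval 1.68 to 2.52), against 1.37 without background correction and 1.24 with an offset of 50. Both alternatives passed the test. Mxd3 rose by 1.58 ± 0.20 in D8 against D4 (adjusted p 3.74e-05) and by 1.04 ± 0.20 in D8 against D6 (adjusted p 0.00449), in 3 of 3 experiments each time. In D6 its mean was at least 1.92-fold higher than in D3 by the same kind of bound (adjusted p 0.00241). The smaller steps did not pass: D6 minus D4 was 0.55 ± 0.20 (adjusted p 0.148, and 0.0451 with the experiment as a block), and D4 with a mean of 5.10 against 4.58 in D3 had an adjusted p of 0.553. Without the D8 array of experiment 1 the D6 minus D4 adjusted p was 0.0369.

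Mxd4, an antagonist found mainly in resting and differentiating cells, went the other way and did so late. Its tested probe had 12.85, 12.73 and 12.99 in D3, 12.72, 12.77 and 12.75 in D4, 12.58, 12.49 and 12.45 in D6, and 11.32, 11.40 and 11.85 in D8. The 3 D8 values lie below all 9 others, which span 12.45 to 12.99, and the D6 values lie below those of D3 and D4. Mxd4 fell by 1.33 ± 0.13 in D8 against D3 (2.51-fold lower, adjusted p 3.16e-06), by 1.22 ± 0.13 in D8 against D4 (adjusted p 1.1e-05) and by 0.98 ± 0.13 in D8 against D6 (adjusted p 0.000508), in 3 of 3 experiments each time. By size of fall among the 9566 genes it had rank 161 for D8 against D3 and rank 65 for D8 against D6. The earlier differences were smaller and did not pass, with -0.35 ± 0.13 for D6 minus D3 (adjusted p 0.0957, and 0.0342 without the D8 array of experiment 3) and -0.24 ± 0.13 for D6 minus D4 (adjusted p 0.375).

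The other 2 Mxd4 probes showed the same late drop. Between D8 and D6 the 3 probes differed by -0.98, -0.97 and -1.08, and between D6 and D4 by -0.24, -0.06 and 0.02. With every detected probe tested on its own (14972 probes), all 3 were called in D8 against D6, with adjusted p from 0.000645 to 0.00106, and 0 of 3 in D6 against D4. The platform annotation gives an accession for those 2 probes and none for the tested, brightest one.

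**Figure D2:**
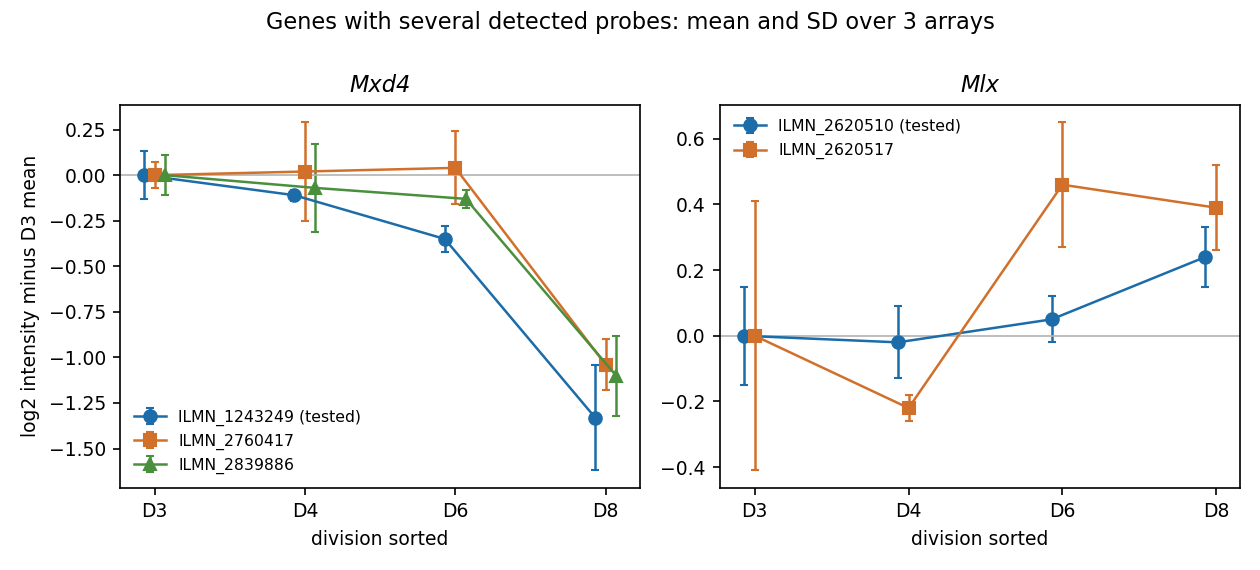
Log2 intensity minus the mean of D3 (vertical axis) for every detected probe of Mxd4 (left) and Mlx (right) in D3, D4, D6 and D8, as mean and SD over 3 arrays. The 3 Mxd4 probes differ from their D3 mean by -0.35 to 0.04 in D6 and by -1.33 to -1.04 in D8, whereas the 2 Mlx probes part at D4 and D6.

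Mxd1, the founding antagonist of the family, known for its induction when cells stop growing and differentiate, changed in a single step. It had 6.65, 6.80 and 6.68 in D3, 6.51, 6.80 and 6.74 in D4, 7.20, 7.28 and 7.11 in D6, and 7.06, 7.35 and 7.10 in D8. All values of D6 and D8 lie above all values of D3 and D4, and within each of these pairs the groups overlap. Mxd1 rose by 0.51 ± 0.11 in D6 against D4 (1.43-fold, adjusted p 0.0217) and by 0.48 ± 0.11 in D6 against D3 (adjusted p 0.0115), and by 0.49 ± 0.11 in D8 against D4 (adjusted p 0.00546) and 0.46 ± 0.11 in D8 against D3 (adjusted p 0.00612), in 3 of 3 experiments each. D8 minus D6 was -0.03 ± 0.11 (interval -0.27 to 0.22, adjusted p 0.926).

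The calls of Mxd1 are less firm than those of Mxd3 and Mxd4. With arrays centred on their median in place of quantile normalization, none of its 4 rises passed, with differences of 0.45 for D6 minus D4 (adjusted p 0.293), 0.30 for D6 minus D3 (0.305), 0.48 for D8 minus D4 (0.066) and 0.33 for D8 minus D3 (0.179). The rise in D6 against D4 also missed the threshold without the D4 array of experiment 1 (adjusted p 0.0944) or the D6 array of experiment 1 (0.0688) or 2 (0.0881), and the rise in D6 against D3 did so without the D6 array of experiment 2 (0.051). The other 2 probes of Mxd1 were not detected on any array.

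Mxi1 and Mnt, the remaining antagonists of the MAX branch, were at the limit of detection. Mxi1 was detected on 3 of 12 arrays, with levels from 4.41 to 4.88, and Mnt on 5 of 12, with levels from 4.46 to 4.86. Their groups overlap in every pair of divisions. The D8 minus D3 difference was -0.05 ± 0.14 for Mxi1 (interval -0.35 to 0.24) and 0.06 ± 0.13 for Mnt (interval -0.21 to 0.33), and both turned sign without single arrays. A change of either gene was not detectable at this signal, which does not show that there was none.

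Mlx gave different answers by probe. The tested probe had 5.30, 5.43 and 5.61 in D3, 5.34, 5.55 and 5.36 in D4, 5.42, 5.55 and 5.48 in D6, and 5.57, 5.74 and 5.72 in D8. The D8 values lie above those of D4 and D6 and overlap those of D3. D8 minus D4 was 0.26 ± 0.11 (interval 0.03 to 0.50) and the adjusted p was 0.0932 (0.0401 with the experiment as a block). The second detected probe had a mean of 5.48 ± 0.13 in D8, 5.55 ± 0.19 in D6 and 4.87 ± 0.04 in D4 (SD, n = 3). With every probe tested, that probe rose by 0.69 ± 0.17 in D6 against D4 (adjusted p 0.0383) and by 0.61 ± 0.17 in D8 against D4 (adjusted p 0.0156). With the mean of both probes, Mlx was called between D8 and D4 (0.43, adjusted p 0.00524) and between D8 and D3 (0.31, adjusted p 0.028).

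A few markers of other cells moved with the divisions, and their part in the differences above was not tested. Of the NK list, 1 of 4 genes was tested and rose, Klrd1 by 1.37 ± 0.25 (adjusted p 0.000722), and in D6 against D4 by 0.98 ± 0.25 (adjusted p 0.0444), and the summed level of the list on the linear scale was 91.1 to 171 in D8 and 35.5 to 49.1 in D3. Of the B cell list, 2 of 7 were tested. Compared by its means, Cd22 was at least 3.01-fold higher in D8 than in D3, where no array detected it (adjusted p 0.000621). The other tested gene, Cd79b, did not rise, with a D8 minus D3 difference of -0.26 ± 0.29 (adjusted p 0.521). The list had sums of 77.4 to 149 in D8 and 45.8 to 73.5 in D3. Of the myeloid list, 2 of 8 were tested and 0 passed, with sums of 75.8 to 146 in D8 and 40.4 to 89.1 in D3. The defining markers Ncr1 and Klrb1c of NK cells, Pax5 and Cr2 of B cells, Itgam and Adgre1 of myeloid cells, and all 4 plasma cell markers on the array were not detected on any array. Neither was Cd5 of the CD4 T cell list, so a missing signal does not show that a cell type was absent. No tested gene of the CD8 (1), dendritic (1), erythroid (2) or stromal (1) lists passed, and with the experiment as a block 1 gene each of the CD8, erythroid and stromal lists was called lower. The tested CD8 gene, Cd8b1, was detected on all 3 arrays of each division (11.30 ± 0.16 in D8 and 11.67 ± 0.29 in D3). Cd8a was not detected on any array. The CD8 list summed to 2290 to 2850 in D8 and 2600 to 3850 in D3. The CD4 T cell list summed to 55800 to 56000 in D8 and 63600 to 67800 in D3.

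Between D8 and D4, 3 of 8 network genes were called (Mxd1 and Mxd3 higher, Mxd4 lower), against 28.5% of all genes. In D8 against D6, 2 of 8 were called (Mxd3 higher, Mxd4 lower), against 9.31%. In D6 against D3, 2 of 8 were called (Mxd1 and Mxd3 higher), against 14.8%, and in D6 against D4 only Mxd1, against 4.27%. The D6 against D4 count was 2 with the experiment as a block, with Mxd3 added, against 9.92% of all genes in that fit.

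In D4 against D3, limma called 0 of 8 network genes, against 0.0105% of all genes. At an unadjusted p under 0.05 there were 1 of 8 network genes (Mxd3) and 656 of all genes.

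Whether a gene's step from D6 to D8 differed from its step between D4 and D6, both of 2 divisions, was tested directly. Mxd4 had a difference between the 2 steps of -0.75 ± 0.23 (unadjusted p 0.00549, adjusted p 0.416), and Mxd1 of -0.54 ± 0.20 (unadjusted p 0.0172, adjusted p 0.588). No network gene passed, against 0.0314% of all genes, and at an unadjusted p under 0.05 there were 2 of 8 network genes and 636 of all genes. The late course of Mxd4 and the early one of Mxd1 are therefore descriptions of the means.

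**Figure D3:**
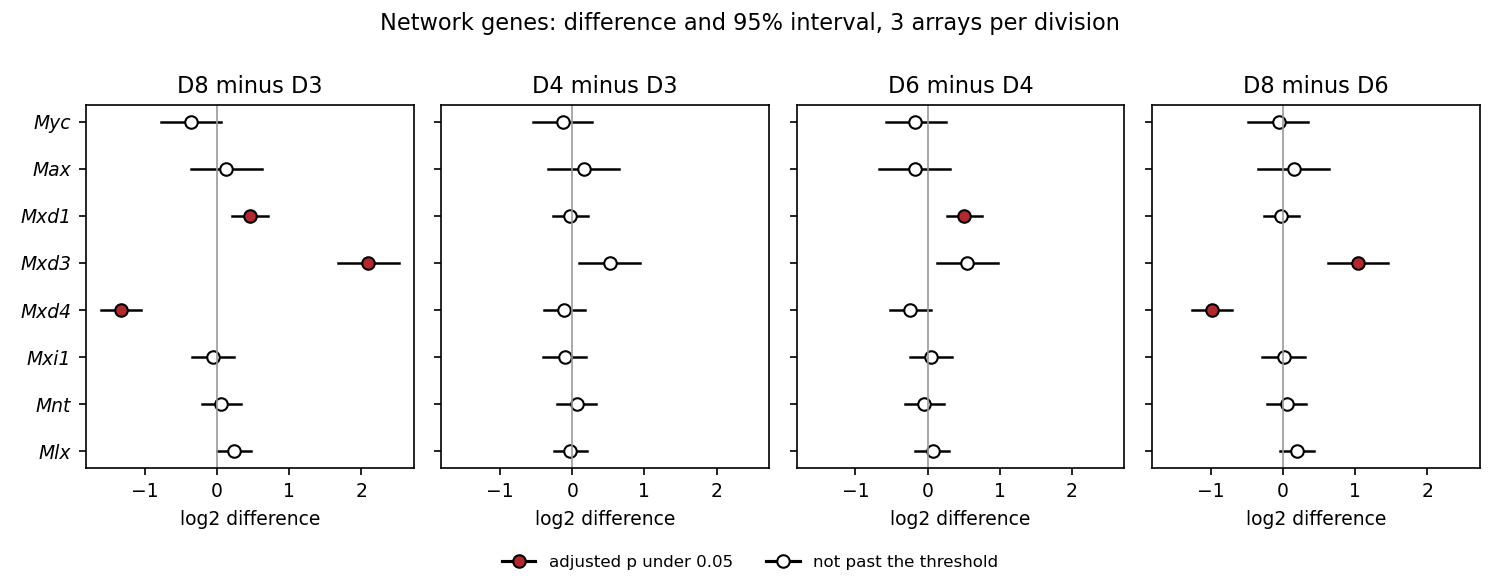
Log2 difference (horizontal axis) of each network gene between D8 and D3 and for the 3 steps in between, with 95% intervals, 3 arrays per division. Filled points passed an adjusted p of 0.05, and the Mxd3 points against D3 are fitted values of a gene that D3 did not detect. Mxd1 is the filled point of the step between D4 and D6, and Mxd3 and Mxd4 are those of the step between D6 and D8.

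D4 was also set against the mean of D3, D6 and D8. Mxd4 was higher in D4 by 0.45 ± 0.11 (adjusted p 0.0238) and Mxd1 was lower, with -0.34 ± 0.09 (adjusted p 0.0468), which is 2 of 8 genes against 5.92% of all genes. With every detected probe tested, the other 2 Mxd4 probes had 0.34 ± 0.11 and 0.35 ± 0.12 and did not pass (adjusted p 0.116 each). Mxd3 had -0.54 ± 0.16 (adjusted p 0.0664), which was 0.0158 with the experiment as a block and 0.0373 to 0.0443 without any 1 of the 3 D8 arrays. D4 was not the extreme of the 4 divisions for Mxd4 or Mxd3. For Mxd1 the D4 mean was the lowest, 6.68 ± 0.16 against 6.71 ± 0.08 in D3 (SD, n = 3), but the 2 groups overlap. The Mxd4 call was lost without any 1 of the 3 D4 arrays (adjusted p 0.072 to 0.0975). Median centring also lost it (0.41, adjusted p 0.118). The Mxd1 call was lost without 11 of the 12 arrays, among which its adjusted p reached 0.224 without the D4 array of experiment 1. Mxd1 also missed the threshold with the authors' table (adjusted p 0.0532), median centring (0.285), no filter on detection (0.0556) and every detected probe tested (0.0605).

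Relatives of the network were tested from a list of 7 names, of which 4 were tested and 0 passed between D8 and D3. Mlxip, which encodes MondoA, had a mean of 7.41 in D8 and 7.98 in D3, a difference of -0.57 ± 0.23 with an adjusted p of 0.0697, and 0.0114 with the experiment as a block. It falls outside the rule for naming, as do the next 3. Zbtb17, which encodes the MYC partner Miz-1, had a difference of 0.17 ± 0.12, Mga 0.02 ± 0.17 and Mlxipl 0.23 ± 0.15.

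A pair of genes known to be driven by MondoA and MLX in response to glucose fell. Txnip, an inhibitor of glucose uptake, fell by 1.46 ± 0.14 in D8 against D3 (10.51 ± 0.31 in D8 and 11.97 ± 0.19 in D3, adjusted p 3.15e-06), and its 2 probes differed by -1.48 and -1.46. Arrdc4, its relative in the arrestin family, fell by 0.63 ± 0.13 (7.44 ± 0.31 in D8 and 8.06 ± 0.05 in D3, adjusted p 0.00188). That is 2 of 3 genes tested of 4 listed, with a median of -0.63, against 18.9% of all genes called lower. In D8 against D6 both fell as well, by 0.67 ± 0.14 (adjusted p 0.00985) and 0.80 ± 0.13 (adjusted p 0.00184).

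The SIN3 and NCoR corepressors that MXD proteins recruit had 1 gene higher and 3 lower of 11 tested (16 listed), with a median of 0.05, a share called near the 36.5% of all genes. Sap30, a subunit of the SIN3 complex, rose by 1.18 ± 0.16 (9.54 ± 0.27 in D8 and 8.36 ± 0.22 in D3, adjusted p 4.81e-05). Arid4b and Arid4a, 2 further SIN3 subunits, fell by 0.61 ± 0.14 (adjusted p 0.00287) and 0.47 ± 0.16 (0.0381), and the histone deacetylase Hdac2 by 0.36 ± 0.11 (0.0165). The 2 detected Hdac2 probes differed by -1.08 and -0.36, and the mean of both gave -0.72 (adjusted p 0.000523). Arid4a and Hdac2 missed the threshold with median centring (adjusted p 0.0514 and 0.21), and Arid4a also without any 1 of 5 arrays (-0.31 without the D8 array of experiment 1) and Hdac2 without any 1 of 2. Of 13 tested coactivators of MYC (14 listed), such as subunits of acetyltransferase complexes, 0 passed, with differences from -0.30 to 0.25, and 1 passed, lower, with the experiment as a block.

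Genes that set the stability of the MYC protein had 1 higher and 3 lower of 13 tested (15 listed), with a median of 0.02, a share called no higher than the 36.5% of all genes. Aurka, a mitotic kinase that shields MYC family proteins from the ligase FBXW7, rose by 2.43 ± 0.24 (9.98 ± 0.42 in D8 and 7.55 ± 0.40 in D3, adjusted p 3.46e-06). Usp28 and Usp36, which remove ubiquitin from MYC, fell by 0.55 ± 0.11 (adjusted p 0.0011) and 0.37 ± 0.12 (0.0213), and Gsk3b, a kinase that marks MYC for removal, by 0.37 ± 0.14 (0.0437). Gsk3b was lost without any 1 of 7 arrays and Usp36 without any 1 of 4, Gsk3b also with median centring (adjusted p 0.101), the authors' table (0.0512) or no filter on detection (0.0749), and Usp36 with the mean of its probes (-0.24, 0.0878). Protein levels were not measured.

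**Figure D4:**
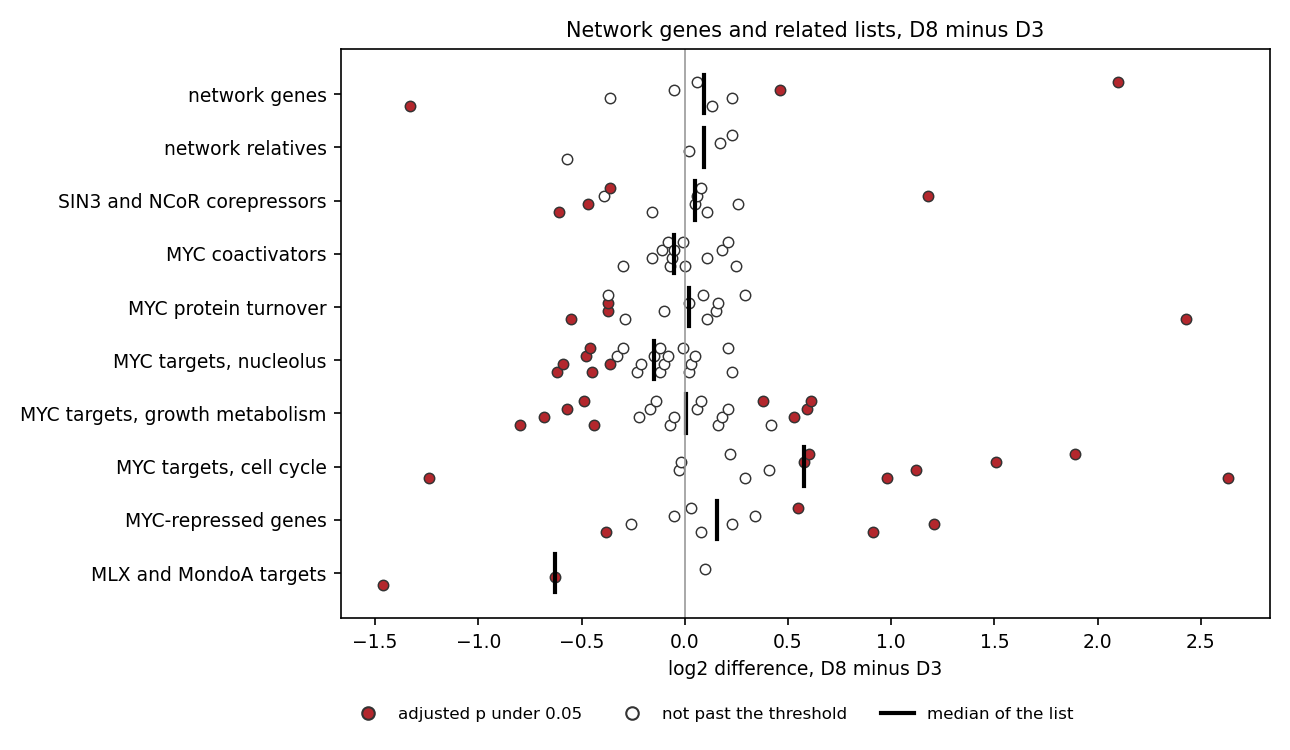
Log2 difference between D8 and D3 (horizontal axis) of each network gene and of each tested gene of the related lists (rows). Filled points passed an adjusted p of 0.05 and black bars are list medians, which are 0.58 for cell cycle targets and -0.15 for nucleolar targets. The called nucleolar targets lie left of 0, and the called cell cycle targets lie right of 0 except Ccnd2.

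Targets that MYC is known to activate were split by role. Of 21 tested nucleolar genes (26 listed), which make ribosomes, 6 fell and 0 rose between D8 and D3, with a median of -0.15, against 18.9% of all genes called lower. The falls were small: Wdr43, a ribosome assembly factor, by 0.62 ± 0.15 (adjusted p 0.00415), Gnl3, the nucleolar GTPase nucleostemin, by 0.59 ± 0.19 (0.0244), Ppan, another assembly factor, by 0.48 ± 0.16 (0.0263), and Npm1, nucleophosmin, by 0.46 ± 0.14 (0.0216). The second Ppan probe differed by 0.20. With median centring Ppan and Npm1 missed the threshold (adjusted p 0.0588 and 0.217), and Npm1, Gnl3 and Ppan did so without any 1 of 3, 2 and 3 arrays, with -0.35 for Gnl3 without the D3 array of experiment 1. With the mean of its probes Ppan had -0.14 (adjusted p 0.633).

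Targets of growth metabolism went both ways, with 4 of 20 tested (29 listed) higher and 5 lower and a median of 0.01, shares near those of all genes (17.6% higher and 18.9% lower). Srm, spermidine synthase, fell by 0.80 ± 0.17 (adjusted p 0.002), and Slc19a1, the reduced folate carrier, by 0.68 ± 0.12 (0.000382), though the second Slc19a1 probe differed by 0.07. Ldha, lactate dehydrogenase A, rose by 0.61 ± 0.13 (adjusted p 0.00234), and Dctpp1, which clears damaged nucleotides, by 0.59 ± 0.13 (0.00201), which was 0.0643 with median centring.

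Cell cycle targets had 7 of 13 tested (15 listed) higher and 1 lower, with a median of 0.58, against 17.6% of all genes called higher. Like the other lists, this one was chosen with earlier results of these data known, so its share is not an independent test. Plk1, a mitotic kinase, rose by 2.63 ± 0.21 (10.20 ± 0.43 in D8 and 7.57 ± 0.35 in D3, adjusted p 4.37e-07), Ccne1, cyclin E1, by 1.89 ± 0.24 (3.31e-05), and E2f2, an E2F factor, by 1.51 ± 0.17 (1.24e-05), with its 3 probes between 0.26 and 1.66. Ccnd2, cyclin D2, fell by 1.24 ± 0.24 (10.60 ± 0.39 in D8 and 11.84 ± 0.10 in D3, adjusted p 0.00108). Its course was that of a late drop, with a D8 minus D6 difference of -1.14 ± 0.24 (adjusted p 0.00909) and a D6 minus D4 difference of 0.16 ± 0.24.

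Genes known to be repressed by MYC had 3 of 10 tested (11 listed) higher and 1 lower, with a median of 0.15, a share called near the 36.5% of all genes. Gadd45a and Gadd45b, stress genes that restrain growth, rose by 1.21 ± 0.15 (adjusted p 1.96e-05) and 0.91 ± 0.14 (0.000176), and Ndrg1, a growth-arrest gene, by 0.55 ± 0.11 (0.00145). The 2 detected probes of Gadd45a differed by 0.78 and 1.21, and those of Gadd45b by 0.35 and 0.91. Ccng2, an atypical cyclin of resting cells, fell by 0.38 ± 0.14 (0.0457), a call lost without any 1 of 8 arrays. It was also lost without background correction (adjusted p 0.0643), with an offset of 50 (0.0635) or with no filter on detection (0.0828). The same held with every detected probe tested (0.0514) and with only the arrays of D8 and D3 (0.0519). With Nolc1 of the nucleolar list, Pim1 of the turnover list and Cdkn1a here, not detected in D3, set at their bounds, the 3 list medians were -0.15, 0.02 and 0.15.

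The genes most like the 3 called antagonists were found by the root mean square difference of centred log2 values over the 12 arrays. They were picked as the smallest of these differences, so they lie below the median over all genes by selection. A gene without any change would have 0.81 for Mxd3, 0.54 for Mxd4 and 0.26 for Mxd1. Nearest to Mxd3 were H2ac12, a replication-dependent histone gene, at 0.20, Plpp2, a lipid phosphatase, at 0.21, and Asf1b, a histone chaperone of dividing cells, at 0.22, where the median over all genes was 0.83. H2ac12 had 13.41 ± 0.22 in D8 and 11.11 ± 0.30 in D3, and Asf1b 8.47 ± 0.25 in D8 and 6.49 ± 0.29 in D3. Nearest to Mxd4 were Btbd11 at 0.12, and Fam3c, a secreted protein, and Vav2 at 0.13 each, with a median over all genes of 0.57. Btbd11 had 6.92 ± 0.38 in D8, 7.97 ± 0.05 in D6 and 8.18 ± 0.24 in D3. Nearest to Mxd1 were Pml, the scaffold of PML nuclear bodies, at 0.10, and Smim15 and Umad1 at 0.11, with a median over all genes of 0.32. Pml had means of 10.99, 11.02, 11.42 and 11.40 in D3, D4, D6 and D8.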

How the data were processed

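RNA of 12 samples, 3 from each of 4 sorted divisions, was measured on Illumina bead arrays. The authors deposited probe intensities, read out with BeadStudio 2.0 per the submitters' processing notes, without normalization between arrays. Beside each intensity stands the authors' detection p-value against the negative controls of that array, per the file headers. A second deposited table holds intensity values that were background-subtracted and brought to nearly one distribution; its method is not given in the sources used here. No genome build is named for the arrays.

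The neqc function (limma 3.58.1, R 4.3.3) corrected the background, added an offset of 16, quantile-normalized the arrays and took log2. Of 45281 probes, 17829 had a detection p-value under 0.05 on at least 3 arrays, and 14972 of these carried 1 symbol in the platform annotation. The brightest probe of each gene was tested, which gave 9566 genes. All arrays entered 1 model with 4 division means (lmFit and eBayes, 8 residual degrees of freedom). A gene was called where its p, adjusted by Benjamini-Hochberg over all genes, was under 0.05, and the intervals given are 95% intervals of the same fit. The p-values measure the spread between the 3 arrays of a division, 1 from each independent experiment, pooled over the 4 divisions. They do not measure how a difference varies between the paired experiments. The fit was tested on simulated data. No array was dropped or imputed, and the number of arrays limits the precision.

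The model has no term for the experiment, which the labels number 1 to 3. Deviations from the division means had a correlation of 0.205 to 0.438 in the 18 pairs that share an experiment and of -0.373 to 0.0342 in the 36 pairs that do not. A fit with the experiment as a block was therefore run as an alternative, and its value is given where it changed a call of a network gene or of another difference that is printed. Differences of related genes that are not printed also gained calls with the block.

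All 8 network genes are named. From each related list, up to 4 genes with the largest difference between D8 and D3 are named among those called and of the same sign in 3 of 3 experiments. For each network gene called between D8 and D3, the 3 genes with the nearest profile are named. A few further list genes are named, and are said to fall outside this rule. The network genes and lists were chosen with earlier results of these data known. Promoter windows are from RefSeq (GRCm38.p6), which gave a window for 7 of the 8 genes.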

Additional observations from a re-analysis of the deposited data

How the results depend on the processing

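Mxd3 and Mxd4 kept their calls between D8 and each of D3, D4 and D6 under every alternative run in which they were tested; with probes detected on all 12 arrays, Mxd3 was not tested. The number of network genes called was 3 to 4 between D8 and D3 and 3 between D8 and D4 when single arrays were left out, and it was 2 in both with median centring, where Mxd1 was lost. The size of the Mxd3 differences moved with the background: with an offset of 50, D8 minus D4 was 1.01 in place of 1.58 and D6 minus D3 was 0.54 in place of 1.06 (0.63 without background correction). The Myc difference between D8 and D3 was -0.22 without background correction and -0.21 with an offset of 50, and that of Ndrg1 was 0.30 and 0.27. The mean of a gene's probes gave -0.72 for Hdac2 and -0.31 for Slc19a1 between D8 and D3, and -0.15 for Mxd4 between D6 and D3. The number of network genes called was 1 between D8 and D6 with probes detected on all 12 arrays. Between D6 and D3 it was 1 with median centring, 1 with probes detected on all 12 arrays and 1 to 3 when single arrays were left out. Between D6 and D4 it was 0 with median centring, 2 with the experiment as a block and 0 to 2 when single arrays were left out. For D4 against the mean of the others it was 1 with the authors' table, 0 with median centring, 1 with no filter on detection, 1 with every detected probe tested and 0 to 3 when single arrays were left out. The Max difference between D8 and D3 was -0.04 with median centring and -0.17 to 0.30 when single arrays were left out, that of Mxi1 -0.15 to 0.02 and that of Mnt -0.03 to 0.14. The cause of these shifts was not tested, other than that 5 network genes were tested with probes detected on all 12 arrays. Of 108 related genes tested, 37 were called between D8 and D3, 27 to 37 when single arrays were left out, 27 with median centring and 44 with the experiment as a block, where 3492, 2396 and 4223 of all 9566 genes were called as given, with median centring and with the block.

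Over all genes, the block raised the calls between D8 and D6 to 1662 (891 without it), between D6 and D3 to 2214 (1419), between D6 and D4 to 949 (408), between D4 and D3 to 65 (1), for the difference between steps to 33 (3), and for D4 against the others to 1209 (566). Because the experiment numbers pair the samples, calls that the block changed for the network genes and for other printed differences are given beside them, whereas differences of related genes that are not printed also gained calls. With median centring 1594 genes were called between D8 and D4 (2728 without it), 338 between D8 and D6, 930 between D6 and D3, 162 between D6 and D4 and 226 for D4 against the others. It put the median of all genes at -0.13 between D6 and D3 (-0.01 without it), and of the genes it called, 24.7% were higher in place of 49.9% there, 36.8% in place of 48.2% between D8 and D3, and 43.2% in place of 54.9% between D6 and D4. Without the D8 array of experiment 1, 371 genes were called between D8 and D6. Signal near background limits Myc, Mxi1, Mnt, Mlx and the early levels of Mxd3. The slide as a block was not run, because slide positions were not available in the sources used here, so an effect of the slide was not tested.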
